A study of Homo sapiens with 12 samples.

Results

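Amino acids enter and leave a cell through transporter proteins in its plasma membrane, and 10 human genes for such transporters were followed through 4 treatment groups of a leukemia cell line. The members were taken by symbol from the deposited tables (SLC7A11, SLC3A2, SLC7A5, SLC7A1, SLC1A4, SLC1A5, SLC38A1, SLC38A2, SLC6A9 and SLC43A1). They are 10 of the 14866 genes listed, and 9 of them reached 10 normalized counts in 3 or more libraries, the limit for a test, as did 13502 genes in all. SHI-1 is an acute myeloid leukemia line that carries the MLL-AF6 fusion, so the libraries describe a single established line. Its 4 groups of 3 libraries received DMSO, 0.3 µM disulfiram with 1 µM copper (DSF), 5 µM niclosamide (NSM), or both drugs with copper (DSF+NSM) for 16 h, and the 3 libraries of a group came from independent experiments. The sources used here do not say whether copper was also given to the DMSO and NSM groups, so the DSF group differs from DMSO by the drug and possibly by the metal. The labels name RPMI medium for these cells while the supplementary methods name IMDM with more serum, and the amino acids supplied by the medium are therefore not settled.

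Several of these proteins work as pairs or exchangers. SLC3A2 is the heavy chain that carries a light chain to the cell surface, and its partners include SLC7A11, the cystine and glutamate exchanger that feeds glutathione synthesis, and SLC7A5, the exchanger that brings in leucine and other large neutral amino acids. Cells short of amino acids or with misfolded proteins phosphorylate the initiation factor eIF2, which lowers protein synthesis but raises translation of the transcription factor ATF4, and ATF4 induces many transporter genes through a short DNA element, the C/EBP-ATF response element. NFE2L2 (NRF2) acts on SLC7A11 among other genes through the antioxidant response element, and MYC is known to act on several amino acid transporter genes through E-boxes.

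The DNA around the start sites was read from RefSeq promoter windows of GRCh38.p14, each 300 bases long, from 250 bases before to 50 bases after an annotated start. 9 of the 10 members had 16 windows between them, and SLC7A11 had none. The windows shown are those of SLC3A2, SLC7A5, SLC7A1 and SLC1A4, since these members were called higher after each drug alone, and where a gene had several windows the one with a motif match was taken. Each is printed 5′ to 3′ on the strand of the gene, and capitals mark matches to the 3 motifs searched on both strands.
SLC3A2, chr11:62881449-62881748, plus strand: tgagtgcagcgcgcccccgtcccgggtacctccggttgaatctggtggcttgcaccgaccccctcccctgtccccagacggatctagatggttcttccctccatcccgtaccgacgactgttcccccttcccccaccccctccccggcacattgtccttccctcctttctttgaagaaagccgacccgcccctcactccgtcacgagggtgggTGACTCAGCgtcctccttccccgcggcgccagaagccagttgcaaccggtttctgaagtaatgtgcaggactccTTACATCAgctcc
SLC7A5, chr16:87869458-87869757, minus strand: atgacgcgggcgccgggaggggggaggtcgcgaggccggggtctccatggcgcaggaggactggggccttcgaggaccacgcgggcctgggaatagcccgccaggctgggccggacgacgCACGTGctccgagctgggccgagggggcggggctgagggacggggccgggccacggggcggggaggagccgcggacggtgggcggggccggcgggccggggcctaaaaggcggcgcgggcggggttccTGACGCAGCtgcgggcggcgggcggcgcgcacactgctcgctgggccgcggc
SLC7A1, chr13:29595639-29595938, minus strand: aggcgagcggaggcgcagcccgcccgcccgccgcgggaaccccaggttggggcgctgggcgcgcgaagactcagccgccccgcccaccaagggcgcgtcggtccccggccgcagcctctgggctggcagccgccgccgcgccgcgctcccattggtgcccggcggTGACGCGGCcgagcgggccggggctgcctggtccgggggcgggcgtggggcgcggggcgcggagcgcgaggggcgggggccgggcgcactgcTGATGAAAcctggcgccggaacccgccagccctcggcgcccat
SLC1A4, chr2:64989149-64989448, plus strand: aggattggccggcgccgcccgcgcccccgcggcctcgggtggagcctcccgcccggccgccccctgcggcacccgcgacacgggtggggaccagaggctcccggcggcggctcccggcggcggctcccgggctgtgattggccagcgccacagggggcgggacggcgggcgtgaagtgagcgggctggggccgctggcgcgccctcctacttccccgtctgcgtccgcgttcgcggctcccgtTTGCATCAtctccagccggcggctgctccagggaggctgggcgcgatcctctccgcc
The SLC3A2 window held the antioxidant response element TGACTCAGC 37 bases before the start and TTACATCA, the reverse complement of a C/EBP-ATF response element, 37 bases after it. The SLC7A5 window held the E-box CACGTG 130 bases before the start and TGACGCAGC 2 bases before it. The SLC7A1 window held TGACGCGGC 85 bases before the start and TGATGAAA 7 bases after it, and the SLC1A4 window held TTGCATCA 7 bases before the start. Over all members, the C/EBP-ATF response element TGATGNAA was found in 5 of 16 windows (31.2%), against 3.62% of all 35116 promoter windows. Many members are known ATF4 targets and were listed as such, so a higher share of this element was built into the choice. The antioxidant response element TGACNNNGC was found in 4 windows (25.0%, against 13.3%) and the E-box CACGTG in 3 (18.8%, against 7.26%). SLC38A2 and SLC6A9 had no match in the windows searched. Windows of a gene can overlap, and a match describes letters, not binding.

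The tables hold estimated read counts divided by a factor for the library, called normalized counts here. They rest on an estimated 10.2 to 19.0 M reads per library. In bulk RNA a lower level from fewer cells of a type and a lower level from less RNA per cell cannot be told apart. The myeloid identity of the line was visible in all 12 libraries, with all 10 myeloid markers detected, including MPO at 14454 to 62640 normalized counts and CD33 at 645 to 974. The B cell marker MS4A1 was listed at 0 in all 12 libraries and the T cell marker CD3D lay between 0 and 14.9, whereas PECAM1, which myeloid cells also express, lay between 448 and 1322. The summed myeloid markers ran from 66876 to 76371 in DMSO, 45630 to 52406 in DSF, 29001 to 36890 in NSM and 33327 to 35231 in DSF+NSM libraries. MPO was the largest item of that sum and was called lower in each treatment, whereas other markers rose, such as CD14 from 54.0 to 64.8 normalized counts in DMSO to 320.6 to 430.8 in DSF. Of the 10 markers, 3 were called higher and 1 lower with DSF, 5 and 4 with NSM, and 3 and 3 with both drugs. The shares called over all genes tested were 11.9% and 5.95%, 25.4% and 23.7%, and 28.3% and 24.5%, in the same order. NSM replicate 3 stood apart from the other libraries of its group. Its Spearman correlation across 13502 genes, which are not independent replicates, was 0.939 and 0.95 with NSM replicates 1 and 2, against 0.980 to 0.996 between the other libraries of a group. For that reason many results below are also given without this library. All normalized counts of a library summed to at most 14.4 M in DMSO and to between 22.7 and 25.6 M when both drugs were given. Scaling every library to an equal sum therefore shifted the median change over all genes by a large amount on the log2 scale, from 0.03 to −0.74 for DSF+NSM, from 0.01 to −0.25 for NSM and from 0.05 to −0.05 for DSF, all against DMSO.

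Most members were called higher with each drug alone, and the combination had members called in both directions. Against DMSO, 5 of the 9 members tested were called higher after DSF, at a Benjamini-Hochberg adjusted p under 0.05 in limma, where 11.9% of all genes tested were called higher, 5.95% lower and 17.8% in either direction. After NSM 8 of 9 were called higher, where 25.4% of all genes were higher, 23.7% lower and 49.1% called. After DSF+NSM 3 were called higher and 2 lower, where 28.3% of all genes were higher, 24.5% lower and 52.8% called. The 9 members had a median log2 fold change of 0.53 (DSF), 0.80 (NSM) and 0.21 (DSF+NSM), where all genes had 0.05, 0.01 and 0.03. The values of the treated and the DMSO group did not overlap for 8 members with DSF (60.9% of all genes tested), 6 with NSM (57%) and 8 with both drugs (69.3%). These 3 comparisons share the DMSO libraries, so likeness between them is not independent. Leaving out NSM replicate 3, which adds to the spread that all comparisons share, gave 7 members higher and 1 lower for each drug alone, and 5 higher with 3 lower for the combination. The counts also fell with other libraries left out, to 2 higher for DSF without any 1 of the DMSO libraries or either of DSF replicates 1 and 2, and to 5 higher for NSM without DMSO replicate 1 or 3. With the median of ratios or the trimmed mean as scaling, 4 were higher for DSF, where the call of SLC7A1 was lost. Scaled to equal sums, 2 were higher for DSF and 4 for NSM, and the combination had 1 higher and 6 lower.

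**Figure D1:**
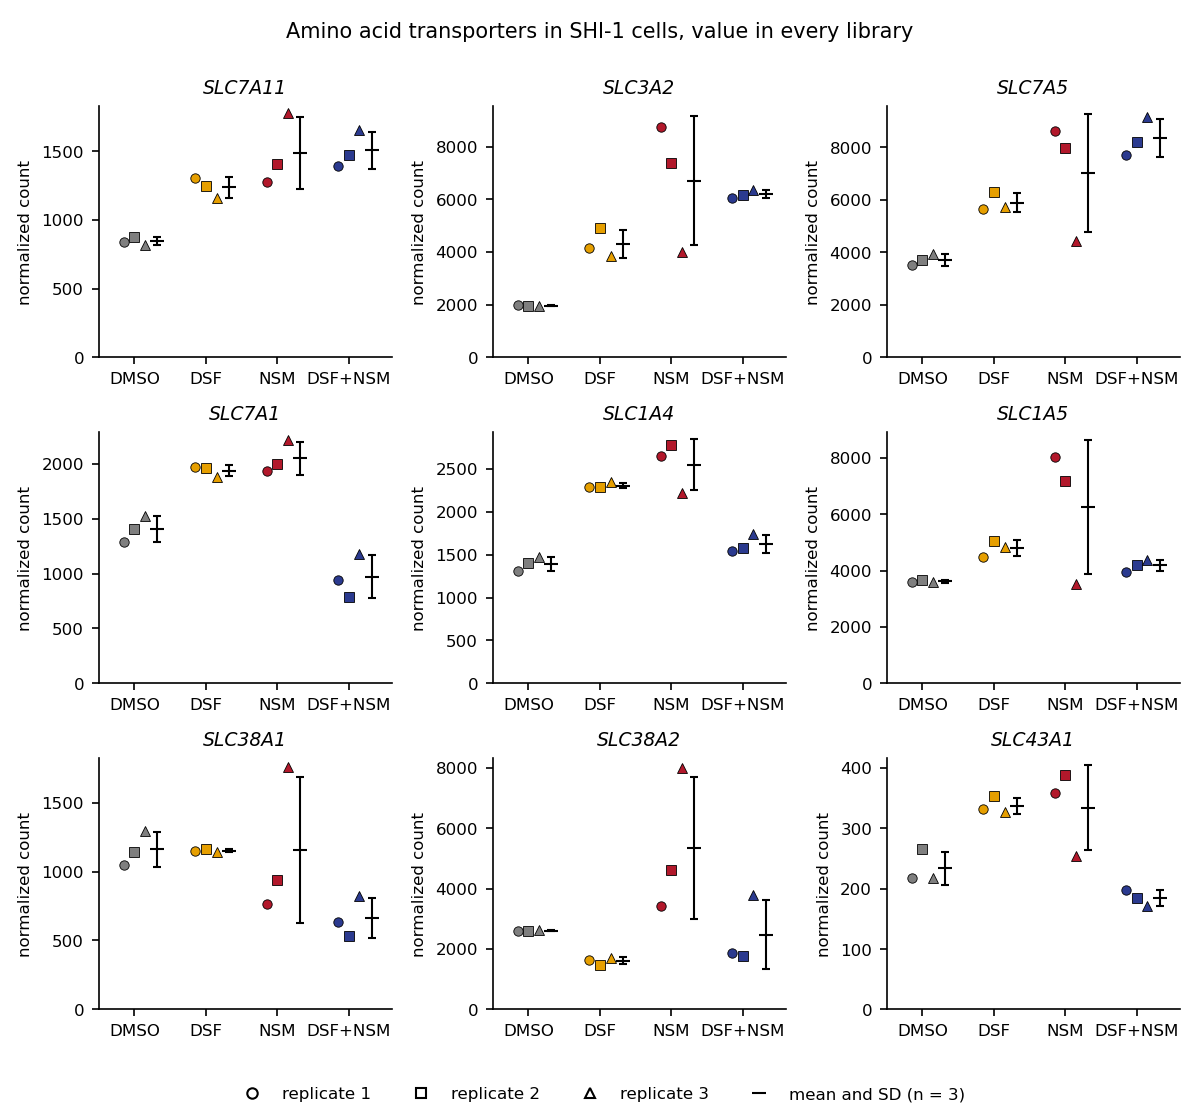
Normalized count of each of the 9 members tested (vertical axes, starting at 0) in every library of the 4 groups; circles, squares and triangles are replicates 1, 2 and 3, and the black bars are the mean and SD of 3 libraries. SLC7A11, SLC3A2 and SLC7A5 lie above DMSO in all 9 treated libraries on this scale, while SLC7A1 is highest with either drug alone and lowest with both.

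SLC3A2, the shared heavy chain on chromosome 11 of GRCh38 (62856004 to 62888880), had the widest range of group means among the members. Its normalized count was 1975, 1937 and 1952 in the DMSO libraries (replicates 1, 2 and 3) and 4148, 4895 and 3864 in DSF. It was 8750, 7396 and 3980 in NSM and 6059, 6173 and 6361 in DSF+NSM. All 9 treated libraries were above the 3 DMSO libraries, and NSM replicate 3 lay at the level of the DSF libraries. SLC3A2 rose by 1.13 on the log2 scale with DSF (adjusted p = 0.00502 from limma, standard error 0.22), by 1.70 with NSM (adjusted p = 6.26e-05) and by 1.66 when both were given (adjusted p = 5.54e-05). DSF+NSM differed from NSM by −0.04 (95% interval −0.52 to 0.45, adjusted p = 0.909) and from DSF by 0.53 (0.05 to 1.02, adjusted p = 0.0715), neither of them called. Without NSM replicate 3 the change after NSM was 2.04, and DSF+NSM was then called lower than NSM (−0.38, adjusted p = 0.00752) and higher than DSF (0.53, adjusted p = 0.00016). With equal sums the change after DSF+NSM was 0.88 and still called (adjusted p = 0.00445), which is 1.62 above the median of all genes on that scale.

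SLC7A11, the cystine importer, rose less and more evenly than its partner. It had 842, 877 and 820 normalized counts in DMSO, 1308, 1249 and 1156 in DSF, 1276, 1408 and 1777 in NSM, and 1394, 1470 and 1653 in DSF+NSM. No treated library fell to the DMSO range, and the NSM and DSF+NSM libraries overlapped each other. The changes against DMSO on the log2 scale were 0.55 with DSF (adjusted p = 0.0172 from limma, standard error 0.14), 0.80 with NSM (adjusted p = 0.000446) and 0.83 with the combination (adjusted p = 0.000278). DSF+NSM exceeded DSF by 0.28 (95% interval −0.02 to 0.58, adjusted p = 0.116) and NSM by 0.03 (−0.27 to 0.32, adjusted p = 0.888). Without NSM replicate 3, in which SLC7A11 was highest, the difference from DSF was called (adjusted p = 0.0143). The call after DSF was lost on leaving out any 1 of the DMSO libraries or either of DSF replicates 1 and 2, with changes that stayed between 0.51 and 0.59. It was also lost with equal sums (0.45, adjusted p = 0.057). With equal sums the DSF+NSM change was 0.04 (adjusted p = 0.807), which is 0.79 above the median of all genes on that scale. The gene occupies positions 138164097 to 138242349 of chromosome 4 (GRCh38) and shares 865 exon bases with the antisense gene SLC7A11-AS1, whose reads a library kit that keeps no strand cannot set apart.

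SLC7A5, the leucine exchanger, had its highest mean with both drugs. It lies on chromosome 16 from 87830023 to 87869507 and shares 271 exon bases with an antisense noncoding gene. Its normalized count was 3505, 3692 and 3935 in DMSO, 5654, 6313 and 5713 in DSF, 8633, 7983 and 4448 in NSM, and 7718, 8190 and 9168 in DSF+NSM. The DSF+NSM libraries lay above all DSF libraries, and NSM replicate 3 lay below them. SLC7A5 rose by 0.67 on the log2 scale after DSF (adjusted p = 0.0384 from limma, standard error 0.20), 0.86 after NSM (adjusted p = 0.00355) and 1.17 after DSF+NSM (adjusted p = 0.000375). The difference of 0.50 between DSF+NSM and DSF did not pass the threshold (95% interval 0.07 to 0.94, adjusted p = 0.0601) but did without NSM replicate 3 (adjusted p = 0.000147). The difference of 0.31 between DSF+NSM and NSM did not pass either (−0.13 to 0.74, adjusted p = 0.245) and was 0.01 without that library. The DSF call was lost in 8 of the 12 fits that left out 1 library, those without DMSO replicate 1, 2 or 3, DSF replicate 1, 2 or 3, or DSF+NSM replicate 1 or 2. It was also lost with equal sums (0.57, adjusted p = 0.0796). With equal sums the DSF+NSM change of SLC7A5 was 0.39 (adjusted p = 0.122), which is 1.13 above the median of all genes.

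**Figure D2:**
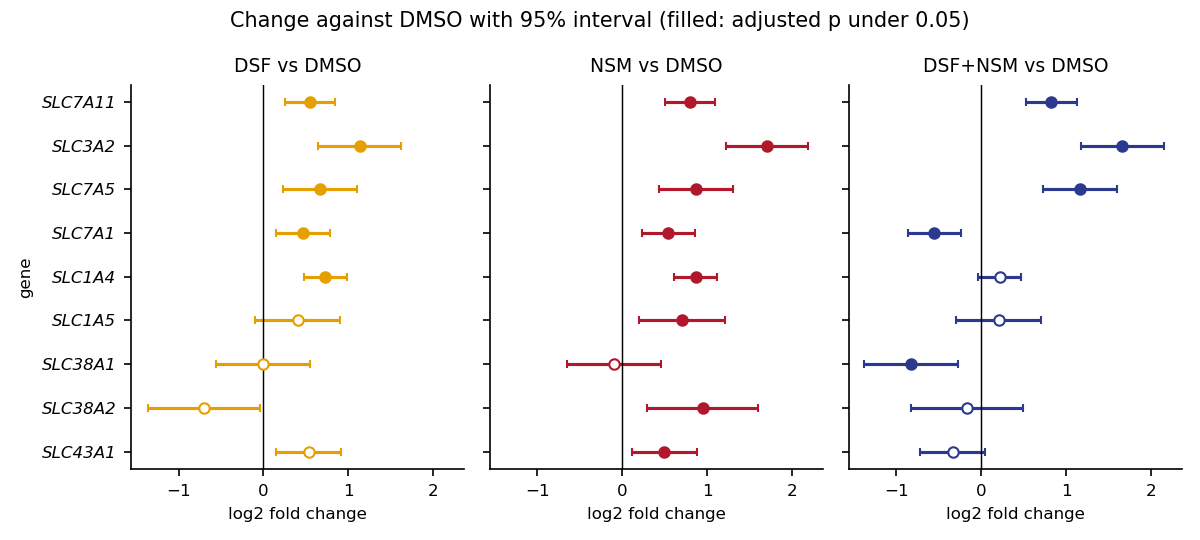
Log2 fold change against DMSO (horizontal axes) of each member in the 3 treated groups, with 95% intervals from limma over all 12 libraries; filled points passed an adjusted p under 0.05. The 3 members of the heavy chain pairs at the top stay to the right of 0 in each panel, while SLC7A1 crosses from 0.46 with DSF and 0.54 with NSM to −0.55 with both. With equal sums the DSF+NSM changes of SLC1A4 and SLC1A5, 0.22 and 0.21 here, turn negative.

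SLC3A2 forms separate pairs with SLC7A11 and with SLC7A5, and a ratio of their values within a library does not depend on how libraries were scaled. The ratio of SLC7A11 to SLC3A2 normalized counts, which is not per length, was 0.420 to 0.453 in DMSO, 0.255 to 0.315 in DSF, and 0.230 to 0.260 in DSF+NSM libraries. In NSM it was 0.146, 0.190 and 0.447, with replicate 3 back in the DMSO range. The ratio of SLC7A5 to SLC3A2 was 1.77 to 2.02 in DMSO, 1.29 to 1.48 in DSF, 0.987 to 1.12 in NSM and 1.27 to 1.44 in DSF+NSM, so that all 9 treated libraries lay below DMSO and the heavy chain gained on this light chain also in NSM replicate 3.

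**Figure D3:**
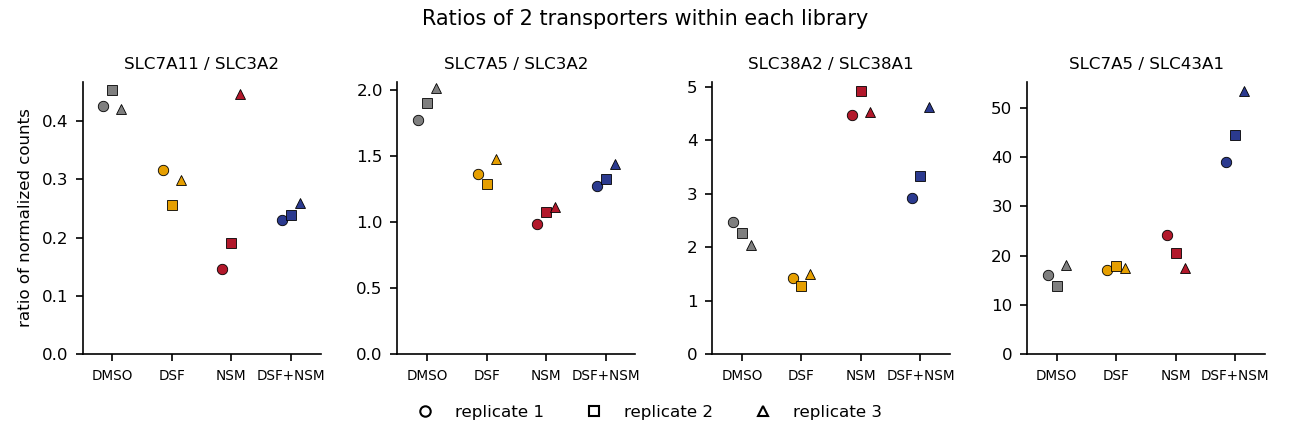
Ratio of the normalized counts of 2 transporters in the same library (vertical axes, starting at 0), a quantity that no scaling of libraries changes; markers are replicates 1, 2 and 3. SLC7A5 over SLC3A2 is 1.77 to 2.02 in DMSO and at most 1.48 in any treated library, and SLC7A5 over SLC43A1 reaches 38.9 to 53.3 with both drugs.

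SLC7A1, the importer of arginine and lysine on chromosome 13 (29509414 to 29595688), rose with each drug and fell with both. Its normalized count was 1287, 1410 and 1525 in DMSO, 1971, 1960 and 1882 in DSF, 1934, 1998 and 2215 in NSM, and 944, 789 and 1177 in DSF+NSM. The 6 single-drug libraries lay above the DMSO libraries and the 3 DSF+NSM libraries below them, with no overlap in either direction. Against DMSO it changed on the log2 scale by 0.46 with DSF (adjusted p = 0.0434 from limma, standard error 0.14), 0.54 with NSM (adjusted p = 0.00776) and −0.55 with both (adjusted p = 0.00632). DSF+NSM was lower than DSF by −1.02 (adjusted p = 0.000152) and lower than NSM by −1.09 (adjusted p = 0.00011). NSM replicate 3 did not stand out for this gene, and the NSM change without it was 0.49. The rise with DSF was near the threshold and was lost in 8 of the 12 fits without 1 library, in all those without a DMSO or DSF library and in those without NSM replicate 2 or DSF+NSM replicate 1, and with the median of ratios (0.42, adjusted p = 0.0671) or the trimmed mean as scaling. Scaled to equal sums, SLC7A1 was not called after DSF (0.37, adjusted p = 0.139) or NSM (0.27, adjusted p = 0.183), and its fall after DSF+NSM was −1.34, or −0.59 relative to the median of all genes.

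SLC1A4 and SLC1A5 exchange small neutral amino acids such as alanine, serine and, for SLC1A5, glutamine. SLC1A4 lies on chromosome 2 from 64988477 to 65023865 and SLC1A5 on chromosome 19 from 46774883 to 46788594. SLC1A4 had 1310, 1401 and 1471 normalized counts in DMSO, 2290, 2283 and 2343 in DSF, 2655, 2782 and 2213 in NSM, and 1540, 1583 and 1738 in DSF+NSM. Its DSF+NSM libraries lay between the DMSO libraries and all 6 single-drug libraries. SLC1A4 rose by 0.73 on the log2 scale after DSF (adjusted p = 0.00136 from limma, standard error 0.12) and by 0.87 after NSM (adjusted p = 7.55e-05), and these calls held in all 22 alternative settings. The difference of 0.22 after DSF+NSM was not called (95% interval −0.04 to 0.47, adjusted p = 0.135), was called without NSM replicate 3 (adjusted p = 0.0255), and was −0.57 with equal sums. The combination was lower than DSF (−0.51, adjusted p = 0.00376) and lower than NSM (−0.65, adjusted p = 0.00098).

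SLC1A5 showed the weight of NSM replicate 3 most plainly. It had 3602, 3679 and 3578 normalized counts in DMSO, 4492, 5051 and 4821 in DSF, 8038, 7188 and 3537 in NSM, and 3958, 4213 and 4376 in DSF+NSM. NSM replicates 1 and 2 were the highest of the 12 libraries and NSM replicate 3 the lowest. The log2 fold change was 0.70 for NSM (standard error 0.23, adjusted p = 0.0238 from limma), and 1.07 without replicate 3 (adjusted p = 1.09e-07). The NSM call was lost in 7 of 22 alternatives, with equal sums (0.43, adjusted p = 0.149), with only the groups compared (adjusted p = 0.116), and without any 1 of the DMSO libraries or either of NSM replicates 1 and 2. After DSF it was 0.40, not called over all 12 libraries (95% interval −0.10 to 0.90, adjusted p = 0.253) and called without NSM replicate 3 (adjusted p = 0.000923), although the DSF and DMSO values do not overlap. The DSF+NSM change of 0.21 (−0.29 to 0.71, adjusted p = 0.476) behaved likewise (adjusted p = 0.0297) and was −0.58 with equal sums. Leaving out NSM replicate 3 also brought SLC1A5 past the threshold in DSF+NSM against NSM (−0.86, from −0.50 over all libraries) and against DSF (−0.19, adjusted p = 0.0441). SLC1A5 shares 780 exon bases with an antisense noncoding gene.

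SLC38A1 and SLC38A2 import glutamine and other small neutral amino acids with sodium, and SLC38A2 is known as a gene induced when amino acids run short. SLC38A1 (46183063 to 46270017) and SLC38A2 (46358188 to 46372773) are near neighbours on chromosome 12. They moved in different ways from the members above. SLC38A2 had 2591, 2595 and 2636 normalized counts in DMSO, 1639, 1479 and 1710 in DSF, 3433, 4625 and 7971 in NSM, and 1864, 1765 and 3798 in DSF+NSM. All DSF libraries were below and all NSM libraries above DMSO, while the DSF+NSM libraries lay on both sides of it. Its log2 fold change was −0.70 with DSF (adjusted p = 0.13 from limma, not called, standard error 0.30) and 0.95 for NSM (adjusted p = 0.0208). Without NSM replicate 3, the highest library, both changed sides, to a called fall after DSF (−0.70, adjusted p = 0.0447) and an uncalled 0.61 after NSM (adjusted p = 0.0795). The NSM call was also lost with equal sums (0.68, adjusted p = 0.102) and without any 1 of the DMSO libraries. The direct difference between NSM and DSF was the only such difference called among the members (1.64, adjusted p = 0.0011), where 21% of all genes tested were called higher, 23.4% lower and 44.4% in either direction. It was 1.31 and called without NSM replicate 3 (adjusted p = 0.00269), when 6 members were called. DSF+NSM was lower than NSM by −1.11 (adjusted p = 0.012), a call lost with only the groups compared (adjusted p = 0.0795) and without DSF+NSM replicate 1 or 2, and the groups overlapped.

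SLC38A1 had 1045, 1143 and 1295 normalized counts in DMSO, 1151, 1160 and 1144 in DSF, 766, 940 and 1758 in NSM, and 636, 529 and 821 in DSF+NSM. The DSF libraries lay within the DMSO range, and the DSF+NSM libraries lay below it. SLC38A1 did not pass the test after DSF (−0.01, 95% interval −0.56 to 0.55, adjusted p = 0.99) or NSM (−0.10, −0.65 to 0.46, adjusted p = 0.777), and fell after DSF+NSM (−0.83, standard error 0.26, adjusted p = 0.0161 from limma). It was called lower after NSM without replicate 3 of that group, where it was highest (−0.45, adjusted p = 0.0215). The fall after DSF+NSM lost its call when DMSO replicate 3 or DSF+NSM replicate 2 was left out (changes of −0.68 to −0.99 over the 12 fits without 1 library). The ratio of SLC38A2 to SLC38A1 normalized counts was 1.27 to 1.49 in DSF, 2.04 to 2.48 in DMSO, 2.93 to 4.63 in DSF+NSM and 4.48 to 4.92 in NSM, and NSM replicate 3 fell within the narrow NSM range although both of its values were the highest of the 12 libraries.

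SLC43A1 carries leucine and other large neutral amino acids without a heavy chain and lies on chromosome 11 from 57484534 to 57515780. It had 218, 266 and 218 normalized counts in DMSO, 332, 353 and 327 in DSF, 358, 389 and 254 in NSM, and 199, 185 and 172 in DSF+NSM. The DSF+NSM libraries were the 3 lowest of the 12, and the DSF libraries were all above DMSO. Its log2 fold change was 0.53 with DSF (adjusted p = 0.0536 from limma, just outside the threshold, standard error 0.18), 0.49 for NSM (adjusted p = 0.0333, with overlapping groups) and −0.33 for DSF+NSM (95% interval −0.71 to 0.05, adjusted p = 0.13). Leaving out NSM replicate 3, the DSF rise (adjusted p = 0.00278) and the DSF+NSM fall (adjusted p = 0.0248) were called and the NSM rise was 0.68. The NSM call was lost in 6 of 22 alternatives, with equal sums (0.23, adjusted p = 0.31), with only the groups compared (adjusted p = 0.114), and without DMSO replicate 1 or 3 or NSM replicate 1 or 2. DSF+NSM was lower than DSF by −0.86 (adjusted p = 0.00181) and lower than NSM by −0.83 (adjusted p = 0.00295). The ratio of SLC7A5 to SLC43A1, both carriers of leucine, was 13.9 to 18.1 in DMSO, 17.0 to 17.9 in DSF, 17.5 to 24.1 in NSM and 38.9 to 53.3 in DSF+NSM. SLC6A9, the glycine transporter on chromosome 1 (43991500 to 44031467), was listed at 0 in 11 of 12 libraries and at 1.06 in NSM replicate 2, and was not tested.

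Compared per kilobase of the canonical transcript, a scale on which levels of different genes can be set side by side, SLC1A5 was the highest member in DMSO at 1256 ± 18.3 normalized counts per kb (SD, n = 3). SLC3A2 followed at 1037 ± 10.1, SLC7A5 at 814 ± 47.4, SLC38A2 at 544 ± 5.22, SLC1A4 at 305 ± 17.7, SLC7A1 at 192 ± 16.2 and SLC38A1 at 143 ± 15.6. SLC43A1 at 93.0 ± 11.0 and SLC7A11 at 87.7 ± 2.98 came last and overlapped, and the other neighbours in this order did not. With both drugs the order began with SLC3A2 at 3288 ± 81.0, SLC7A5 at 1835 ± 162 and SLC1A5 at 1451 ± 73.0, with no overlap between neighbours. SLC38A2 at 516 ± 239 and SLC1A4 at 355 ± 22.8 came next and overlapped, as did SLC7A11 at 156 ± 13.8 and SLC7A1 at 132 ± 26.6. On this length SLC3A2 was below SLC1A5 in DMSO and above it with both drugs, and the same held in DSF, where SLC3A2 had 2283 ± 282 and SLC1A5 1661 ± 97.4 normalized counts per kb. In NSM the top 3 members, SLC3A2, SLC1A5 and SLC7A5, each overlapped the next, and SLC38A2, the next, did not overlap SLC1A4. The place of SLC3A2 rests on its canonical transcript of 1885 bases, of 6392 annotated exon bases (2882 of 3332 for SLC1A5), and per exon base SLC3A2 would lie below SLC1A5 in DMSO and with both drugs.

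The combination was then set against both drugs directly. Compared with DSF, DSF+NSM had 4 members called lower (SLC7A1, SLC1A4, SLC38A1 and SLC43A1), where 21.4% of all genes were lower, 21.7% higher and 43.1% called. Compared with NSM it had 5 called lower (SLC7A1, SLC1A4, SLC38A1, SLC38A2 and SLC43A1), where 18.3% of all genes were lower, 20.3% higher and 38.6% called. The SLC38A1 call against NSM was lost in 10 of 22 alternatives, among them only the groups compared (adjusted p = 0.158) and leaving out NSM replicate 3 (−0.38, adjusted p = 0.0532), and without that library 6 members were lower than in NSM. Against DSF the SLC38A1 call was lost without any 1 of the DSF libraries and without DSF+NSM replicate 1 or 2. The DSF+NSM values did not overlap those of DSF for any of the 9 members (62.4% of all genes) and those of NSM for 3 (41.5%), and NSM and DSF did not overlap for 1 (54.8%). For 5 members (SLC7A1, SLC1A4, SLC1A5, SLC38A1 and SLC43A1) the mean with both drugs lay below both single-drug means, and for SLC7A11 and SLC7A5 it lay above both, although with equal sums the combination was below either drug for these (−0.41 against DSF and −0.49 against NSM for SLC7A11, −0.18 and −0.21 for SLC7A5). The interaction, obtained by subtracting the changes of both single drugs from the change of the combination, was negative for all 9 members, against 49.8% of all genes tested, and stayed negative for them in all 21 alternatives. Its median was −0.90 over the members and 0.01 over all genes. For 4 members it was called, where 14% of all genes were called lower, 12.1% higher and 26.1% in either direction. All genes are an unlike background here, since both single-drug changes are subtracted. The DSF change was positive for 7 of the 9 members and the NSM change for 8, against 7233 and 6832 of all 13502 genes.

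The interaction of SLC7A1 was −1.56 (standard error 0.20, adjusted p = 0.000262 from limma), that of SLC1A4 −1.38 (0.16, adjusted p = 0.000159), that of SLC43A1 −1.36 (0.25, adjusted p = 0.00192) and that of SLC3A2 −1.17 (0.32, adjusted p = 0.0164). These 4 held in all 21 alternatives. The interaction of SLC7A11 was −0.52 (adjusted p = 0.0658) and that of SLC1A5 −0.90 (adjusted p = 0.0612), and neither was called. Those of SLC7A5 (−0.36, adjusted p = 0.378), SLC38A1 (−0.72, adjusted p = 0.161) and SLC38A2 (−0.41, adjusted p = 0.512) were not called either. SLC7A11, SLC1A5 and SLC7A5 were called as well when NSM replicate 3 was left out. For SLC3A2 the single-drug changes sum to 2.83 and the combined change was 1.66, against 1.70 for NSM alone. For SLC7A1 the sum was 1.01 and the combined change −0.55.

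**Figure D4:**
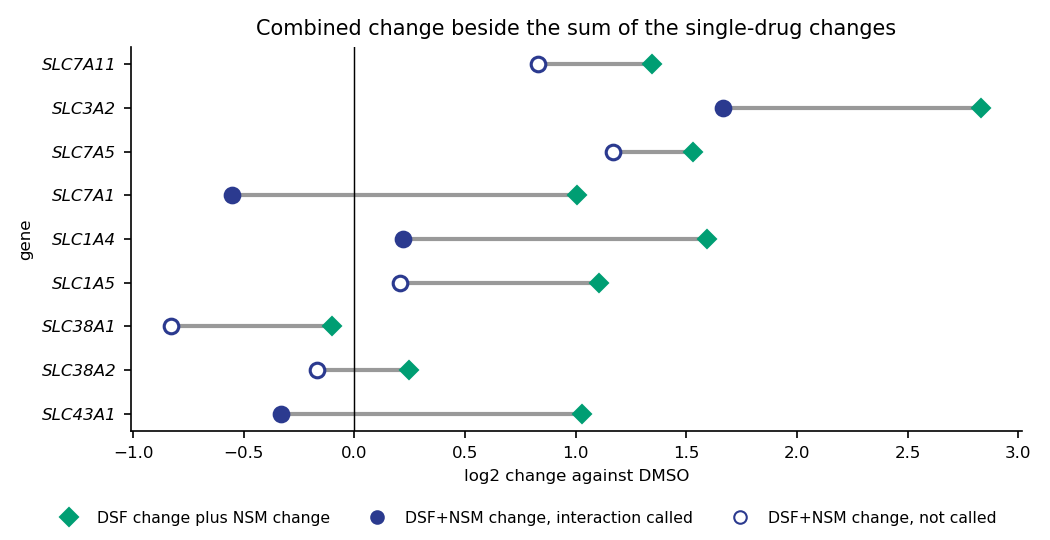
Log2 change against DMSO (horizontal axis) with both drugs (circles) and the sum of the changes with DSF and NSM alone (diamonds) for the 9 members; filled circles mark members whose interaction passed an adjusted p under 0.05. The circle lies to the left of the diamond for all 9 members, by 1.56 for SLC7A1 and by 0.36 for SLC7A5.

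The nearest genes by pattern, over the 12 libraries and 10794 genes with a mean of at least 50, were found for the 3 members whose group means span the widest range. The measure is the root mean square difference of log2 values centred on each gene's own mean, and it carries the scaling and the NSM replicate 3 that all genes share. HDAC5, RHOC and ZFPL1 were nearest to SLC3A2 at 0.0982, 0.122 and 0.138, against a median of 0.841 over all genes. GPR97, C19orf38 and CTIF were nearest to SLC7A5 at 0.0943, 0.0948 and 0.109, against a median of 0.656. FAM200B, CUL4B and PRKRA were nearest to SLC38A2, at 0.174, 0.177 and 0.179 against a median of 0.808. SLC3A2 and SLC7A5 differed from each other by 0.308, and SLC3A2 and SLC7A11 by 0.501.

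Other plasma membrane amino acid transporters were called in both directions, as were genes at large. Of 28 names in this list, 10 were in the tables and 8 were tested. DSF had 5 of 8 called higher and 1 lower, NSM 2 in each direction and the combination 3 in each direction. These counts were the same without NSM replicate 3. Among all genes tested the shares were 11.9% higher and 5.95% lower with DSF, 25.4% and 23.7% with NSM, and 28.3% and 24.5% with both. With equal sums the DSF+NSM calls were 2 higher and 5 lower, where 1534 of all 13502 genes were higher and 7581 lower. SLC43A2, a leucine carrier of the same family as SLC43A1, was called higher with both drugs. SLC43A1 was not called there (−0.33, adjusted p = 0.13 from limma). The normalized count of SLC43A2 was 60.2 to 61.6 in DMSO, 150 to 224 in DSF, 37.4 to 69.2 in NSM and 367 to 443 in DSF+NSM. SLC43A2 rose by 1.64 on the log2 scale with DSF (adjusted p = 0.000639 from limma) and by 2.72 with both drugs (adjusted p = 1.52e-06), was −0.18 with NSM (adjusted p = 0.548), and its interaction was 1.26 (adjusted p = 0.014, and 0.0697 with equal sums).

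SLC7A6, a light chain of SLC3A2 that exchanges arginine and neutral amino acids, fell with each treatment. It had 546 to 624 normalized counts in DMSO, 393 to 457 in DSF, 315 to 320 in NSM and 193 to 263 in DSF+NSM, with changes of −0.47, −0.87 and −1.42 (adjusted p = 0.0472, 0.000461 and 7.91e-06 from limma). SLC7A7, another light chain of that kind, rose with DSF (1.14, adjusted p = 0.00438) and with both drugs (0.94, adjusted p = 0.00331, and 0.16 with equal sums, not called), and was not called with NSM (0.21, adjusted p = 0.459). SLC1A3, a glutamate transporter, fell with both drugs (−1.51, adjusted p = 4.43e-05), with 228 to 249 normalized counts in DMSO and 67.0 to 95.3 in DSF+NSM. 2 further genes are shown that were chosen after their values were seen. SLC7A8, a light chain for neutral amino acids, was higher with DSF (0.77) and with NSM (0.66) but not called with both (0.20, adjusted p = 0.308, and a called −0.58 with equal sums), with an interaction of −1.24 (adjusted p = 0.00194). SLC6A6, the taurine transporter, was higher with DSF (0.51, adjusted p = 0.0458, and 0.41 with equal sums, not called).

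**Figure D5:**
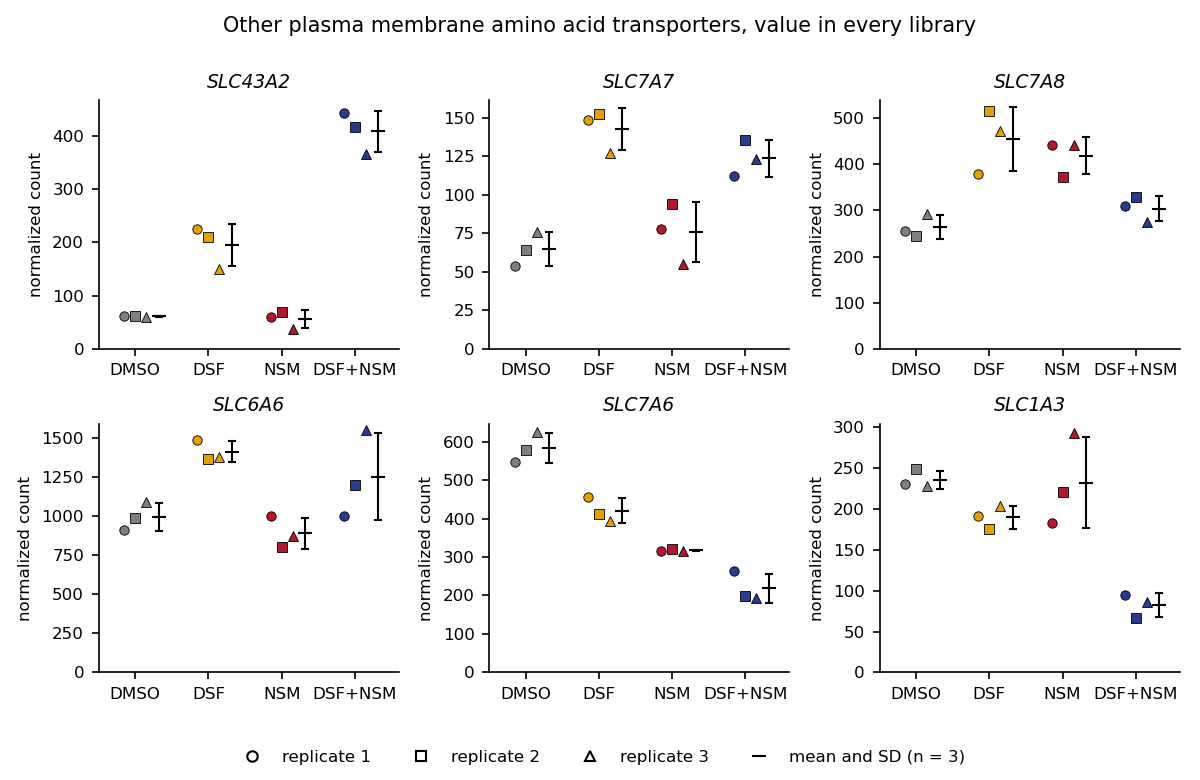
Normalized count (vertical axes, starting at 0) of 6 other plasma membrane amino acid transporters in every library; circles, squares and triangles are replicates 1, 2 and 3, and black bars the mean and SD of 3 libraries. SLC43A2 reaches 367 to 443 with both drugs from 60.2 to 61.6 in DMSO, while SLC7A6 and SLC1A3 are lowest with both drugs.

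Genes of the ATF4 response were followed as a list of 20, which holds ATF4 and targets that are not transporters. After DSF 16 of 20 were called higher, after NSM 18, and after DSF+NSM 17 with 2 lower. Their medians were 0.93, 2.00 and 1.54 on the log2 scale. Of all genes tested 11.9%, 25.4% and 28.3% were called higher, and 24.5% lower after DSF+NSM. The higher calls of the list were 19, 19 and 17 without NSM replicate 3, and with equal sums they were 14, 18 and 11. Over all 13502 genes they were 3176, 4211 and 4759 without NSM replicate 3, and 1209, 2218 and 1534 with equal sums. ATF4 itself had 8049 to 9707 normalized counts in DMSO, 12902 to 15226 in DSF, 22166 to 30445 in NSM and 23065 to 26892 in DSF+NSM, and was called higher in each. DDIT3, the stress transcription factor CHOP, rose by 3.14, 4.85 and 4.99 (adjusted p = 1.27e-06, 2.1e-08 and 2.78e-09 from limma). With both drugs PPP1R15A, which directs dephosphorylation of eIF2, rose by 6.10, ATF3 by 5.85 and SESN2 by 4.66. The DSF and NSM changes were each positive for 19 of the 20, and the interaction subtracts both. In the interaction 15 of the 20 were called lower, where 14% of all genes were, and the median of the list was −1.53. ATF4 (−0.70, adjusted p = 0.0167 from limma) and DDIT3 (−3.00, adjusted p = 4.39e-05) were among those called. NFE2L2 was 0.35 after DSF (adjusted p = 0.352, not called), 0.99 after NSM (adjusted p = 0.00554) and 0.89 after DSF+NSM (adjusted p = 0.00895, and 0.11 with equal sums, not called). MYC was −0.51 after DSF (adjusted p = 0.13, not called), −1.46 after NSM (adjusted p = 0.000185) and −4.17 after DSF+NSM (adjusted p = 3.23e-08), with 6648 to 7246 normalized counts in DMSO and 261 to 588 with both drugs. The part of these regulators in the changes of the transporters was not tested.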

How the data were processed

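The authors selected poly(A) RNA, made TruSeq libraries that keep no strand and sequenced read pairs. For quantification the paper names STAR and Salmon in nf-core/rnaseq against GRCh38 with DESeq2, whereas the submitters' processing notes list bcl2fastq 2.19, Trimmomatic, Bowtie2, Picard, featureCounts and DESeq2 with hg38. The signal in the deposited tables, 1 for each library, is a normalized count by the authors. By the header, normalization ran over 24 libraries, and 12 are used here. Of the values above 0, 32.2% to 32.9% per library were whole multiples of the step of 1 read (tolerance 0.01), so reads were not recovered, no count test was run, and depth (10.2 to 19.0 M reads, median 15.0 M) is an estimate.

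Values were tested as log2(value + 1), which understates changes of low genes, with limma-trend and its robust option (limma 3.58.1, R 4.3.3). All 12 libraries entered 1 fit without a replicate block, over the 13502 genes that reached 10 in 3 or more libraries. Calls are at a Benjamini-Hochberg adjusted p under 0.05 over all genes tested, two-sided. The fit was tested on simulated data with 200 changed genes. The simulated noise was independent and of equal spread in all groups, so that run cannot show how a library such as NSM replicate 3 affects the calls. Positions and transcript lengths came from GENCODE 44. Tables and figures were made in Python 3.11.15 with matplotlib 3.10.9.

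The members, the lists (other plasma membrane transporters, lysosomal and mitochondrial carriers, ATF4 targets, glutathione and thioredoxin genes, amino acid sensing, cell markers) and the tests were chosen with earlier results of these data known. From each list the genes named were those called, with a mean of 50 or more, that had the largest DSF+NSM changes (up to 6, 4, 4, 3 and 3), with ATF4, DDIT3, NFE2L2 and MYC as regulators. Alternatives were 3 scalings (median of ratios, trimmed mean, equal sums), 2 filters (none, at least 10 in every library), pseudocounts of 0.1 and 10, the compared groups alone, library weights, leaving out 1 library at a time, and a replicate block.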

Additional observations from a re-analysis of the deposited data

Results flagged for a closer look

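4 results were picked out because a test of the difference itself, the interaction in limma, showed that the effect of one drug differed with the other drug present. On the log2 scale the combined change fell short of the sum of the single-drug changes by −1.56 for SLC7A1 (adjusted p = 0.000262), −1.38 for SLC1A4 (adjusted p = 0.000159), −1.36 for SLC43A1 (adjusted p = 0.00192) and −1.17 for SLC3A2 (adjusted p = 0.0164). SLC3A2 differs from the other 3 in that its level with both drugs stayed above DMSO (1.66), whereas the changes of SLC7A1, SLC1A4 and SLC43A1 with both drugs were −0.55, 0.22 and −0.33, of which the first alone was called. Over the 21 alternatives the interaction ranged from −1.98 to −1.42 for SLC7A1, from −1.79 to −1.31 for SLC1A4, from −1.77 to −1.24 for SLC43A1 and from −1.59 to −0.94 for SLC3A2. NSM replicate 3 was set apart as a whole library, but groups of 3 libraries were not searched gene by gene for single outlying values.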

How the results depend on the processing

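Among 63 tests of members, 19 of the 32 calls kept their direction and side of the threshold in every alternative. Of the 31 results without a call, 4 stayed uncalled in every alternative, and each of these 4 changed sign in some. Leaving out each library in turn gave 2 to 8 members called for DSF against DMSO (5 in the full fit), 5 to 8 for NSM (8), 4 to 8 for DSF+NSM (5), 3 to 8 for DSF+NSM against DSF (4), 3 to 6 against NSM (5), 1 to 6 for NSM against DSF (1) and 4 to 7 for the interaction (4). For DSF the count was 2 without any 1 of the DMSO replicates or DSF replicate 1 or 2, 3 without DSF replicate 3 or DSF+NSM replicate 1, and 8 without NSM replicate 3. It was 5 for NSM without DMSO replicate 1 or 3, and 3 for DSF+NSM against NSM without DSF+NSM replicate 1 or 2. Leaving out NSM replicate 3 it was 8 for DSF+NSM against DMSO and against DSF, 6 for NSM against DSF and 7 for the interaction.

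With library weights the members called were 8 for DSF, 9 for DSF+NSM, 8 for DSF+NSM against DSF, 8 for NSM against DSF and 9 for the interaction, and SLC43A1 turned from −0.04 to a called 0.20 in NSM against DSF (adjusted p = 0.0214). Fitting only the groups compared gave 8 for DSF, 7 for DSF+NSM against DSF and 3 for DSF+NSM against NSM, and the interaction needs all groups and has no such fit. The median of ratios and the trimmed mean each gave 2 for NSM against DSF.

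Equal sums gave 2 for DSF, 4 for NSM and 7 for the interaction. They reversed 4 uncalled differences into called falls, the DSF+NSM changes against DMSO of SLC1A4 (−0.57, adjusted p = 0.00223) and SLC1A5 (−0.58, adjusted p = 0.0476), and SLC7A11 in DSF+NSM against DSF (−0.41, adjusted p = 0.034) and NSM (−0.49, adjusted p = 0.0162). Falls that became called without a change of sign were those of SLC38A2 (−0.95) and SLC43A1 (−1.11) in DSF+NSM against DMSO, and of SLC1A5 against DSF (−0.88) and NSM (−1.01). The share of higher calls among all genes went from 66.6% to 49.2% for DSF, 51.7% to 33.0% for NSM and 53.6% to 16.8% for DSF+NSM, 50.3% to 12% for DSF+NSM against DSF, 52.5% to 18.0% against NSM, 47.3% to 31.8% for NSM against DSF and 46.3% to 19.2% for the interaction. For DSF it was 54.7% with only the groups compared and 55.4% with library weights.

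Counts over all genes moved most for DSF (2405 in the full fit), to 7289 with only the groups compared, 8171 with library weights, 5551 without NSM replicate 3, and 911 to 1391 when any 1 of the DMSO libraries or either of DSF replicates 1 and 2 was left out. Library weights gave 11107 for NSM (6635 in the full fit), 9120 for DSF+NSM against DSF (5818), 9782 against NSM (5212), 10369 for NSM against DSF (5991) and 8933 for the interaction (3527), which was 6175 without NSM replicate 3. Only the groups compared gave 2473 for DSF+NSM against NSM and 3970 for NSM against DSF.

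Whether the replicate numbers pair the libraries was not settled, since deviations within groups of 3 libraries can show only strong pairing. The deviations of same-numbered libraries correlated over 0.1 in 2 of 18 pairs (range −0.06 to 0.28), and 6 of 12 libraries correlated best with their own number. The highest correlation, 0.28, was that of NSM replicate 3 with DSF+NSM replicate 3. Within its group DSF+NSM replicate 3 had Spearman correlations of 0.980 with replicates 1 and 2, against 0.991 between those. With a replicate block 2 members were called for NSM against DSF, where SLC3A2 was gained, and 6 for DSF, where SLC43A1 was gained, and the other member calls were unchanged. Depth is an estimate here, and every member tested had at least 172 normalized counts in each library.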

Other observations

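Amino acid carriers of the lysosome and mitochondrion, 16 of which were tested, were called in both directions. DSF had 1 called higher and 2 lower, NSM 2 and 6, and the combination 3 and 6 in the same order, and without NSM replicate 3 the calls were 3 and 5, 4 and 8, and 4 and 8. With equal sums the DSF+NSM calls were 1 higher and 12 lower. Of all genes tested, 11.9% were called higher and 5.95% lower with DSF, 25.4% and 23.7% with NSM, and 28.3% and 24.5% with both drugs. SFXN1, the mitochondrial serine carrier, fell by 0.55 with DSF, 1.18 with NSM and 1.93 with both drugs on the log2 scale (adjusted p = 0.0439, 0.000139 and 2.12e-06 from limma). SLC25A15, the ornithine carrier, fell by 1.06 with NSM and 1.79 with both drugs. SLC25A22, a glutamate carrier, was −1.19 with both drugs (adjusted p = 0.0195), and its NSM change of −1.42 was −0.80 without replicate 3. PQLC2, the lysosomal exporter of cationic amino acids, was 1.17 with both drugs (adjusted p = 0.00469, and 0.39 with equal sums, not called).

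A list of glutathione and thioredoxin genes, which also holds NFE2L2, NQO1 and HMOX1, had 5 of 10 called higher after DSF. It had 3 higher with 2 lower after NSM, and 9 higher after DSF+NSM, which were 4 with equal sums. The shares of all genes tested were 11.9% higher and 5.95% lower after DSF, 25.4% and 23.7% after NSM, and 28.3% and 24.5% after DSF+NSM. Leaving out NSM replicate 3 gave 6, 5 and 10 of this list higher. HMOX1, the heme oxygenase gene, had 8.31 to 10.8 normalized counts in DMSO, 7614 to 16708 in DSF, 11.5 to 18.7 in NSM and 117085 to 133674 with both drugs. SRXN1 (sulfiredoxin) was 2.97 higher and GCLM, the modifier subunit of glutamate cysteine ligase, 1.61 higher on the log2 scale with both drugs. Among 19 amino acid sensing genes, 2 were called higher with DSF, NSM had 3 called higher against 6 lower, and the combination 5 against 6. The shares of all genes given above apply to these counts too, and most of these genes were not called with DSF or NSM. Leaving out NSM replicate 3 gave 3 against 4 with DSF, 6 against 8 with NSM and 7 against 7 with both. Equal sums gave 3 against 11 with both, where all 13502 genes had 1534 against 7581. RRAGD, a GTPase that activates mTORC1, rose by 1.51 with both drugs and LAMTOR3, a subunit of its lysosomal anchor, by 1.41. IMPACT, which restrains the amino acid sensor GCN2, fell by 1.47.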
